A study of Xenopus tropicalis with 4 samples.

Results

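Cytosolic ribosomal proteins are the protein subunits of the ribosome outside mitochondria. Their genes were taken by symbol, as those named rpl or rps plus a number (with the suffixes a, x, l or y), rplp0, rplp1, rplp2 and rpsa, leaving out the rps6k kinases, rps19bp1 and symbols that end in l1. This gave 76 of the 28850 genes in the tables, 30 of the small (40S) subunit and 46 of the large (60S) subunit. The genes rpl41, rps20 and rps28 are not analysed here. All 76 symbols were found in the RefSeq gene table of UCB_Xtro_10.0, and no read count of these genes was fractional in any library, so reads shared with near-identical copies did not enter their counts in part.

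The data are poly(A) RNA-seq of animal caps, the ectoderm of the embryo's animal pole, cut from Xenopus tropicalis gastrulae at stage 10.5 (Nieuwkoop and Faber). Embryos of the Foxh1 MO group (2 libraries) received 22.5 ng of a morpholino oligonucleotide (MO) against foxh1 at the first cell stage, and those of the control MO group (2 libraries) received 22.5 ng of a standard control MO; all were labelled wild type and raised at 25 °C. Foxh1 is a forkhead transcription factor that works with Smad2 downstream of Nodal ligands, and the comparison asks which transcripts of the ectoderm differ when its MO is present. Nothing in the labels says that the 2 libraries of a group are from different clutches. The p-values thus cover only the spread between these 4 libraries, which could be technical.

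A ribosome carries about equal numbers of each of its proteins, and cells set their supply largely at translation and by degrading surplus protein. In vertebrates these mRNAs begin with a run of pyrimidines (the terminal oligopyrimidine or TOP tract), through which the kinase mTOR and the protein Larp1 switch their translation on and off together. Early Xenopus laevis embryos live on ribosomes stored in the egg, and ribosomal protein mRNAs made after the onset of zygotic transcription are at first poorly translated. Transcript levels, as given here, do not measure the proteins.

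The libraries held 28567827 and 25632619 expected counts for Foxh1 MO 1 and 2, and 29750009 and 29800530 for control MO 1 and 2. Gene models of ribosomal RNA took 28.3% to 34.0% of them. The foxh1 transcript stood at 154 and 104 TPM (transcript abundance per length, scaled to a fixed total) in the libraries labelled Foxh1 MO, against 49.3 and 40.5 TPM in control MO, so the targeted transcript was higher in the labelled libraries, and groups are named by their labels throughout. All 14 ectoderm markers checked were above 10 TPM on average, and their summed level was 4610 to 4776 TPM in Foxh1 MO caps and 4869 to 5084 TPM in control MO caps. Within that sum 7 markers were called in edgeR (50.0%, against 8.24% of all tested genes). Of these dlx3, foxi1, grhl1 and tfap2a rose, by log2 fold changes of 0.68 to 1.22, and sox2 (-1.23), sox3 (-0.63) and foxi2 (-0.58) fell. Of 10 endoderm markers 1 (vegt) exceeded 10 TPM, with sums of 57.3 to 65.6 TPM in Foxh1 MO caps and 70.3 to 81.9 TPM in control MO caps. Of the 9 tested, darmin rose (log2 fold change 3.29, SE 0.42) and sox17b.1 fell (log2 fold change -1.05), or 22.2% called. No mesoderm marker of 9 exceeded 10 TPM (sums 12.4 to 14.9 TPM in Foxh1 MO caps and 16.2 to 19.9 TPM in control MO caps), and fgf4 was at 0 in both Foxh1 MO libraries. Of the 5 tested, eomes fell (log2 fold change -0.96), or 20% called. The 5 germ plasm markers summed to 60.5 to 72.0 TPM in Foxh1 MO caps and 62.1 to 74.5 TPM in control MO caps. The part of these cell types, and of the changes among their markers, in the results below was not tested.

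Transcripts of ribosomal proteins were a little more abundant in Foxh1 MO caps, and 12 of the 75 genes that could be tested rose while 0 fell (16.0% called, against 8.24% of all tested genes, of which 4.17% were higher and 4.07% lower). A gene was said to rise or fall at an adjusted p under 0.05 in edgeR's quasi-likelihood test over all genes. The calls rested on single libraries, and all ended without control MO 1 and most without Foxh1 MO 2. The median log2 fold change of the 75, 0.26 with all libraries, was 0.09 and 0.16 in these fits. It was 0.44 without control MO 2 and 0.34 without Foxh1 MO 1. The 12 were rpl37, rpl32, rps3a, rpl18, rps3, rps24, rpl27a, rpl17, rpl23a, rps23, rps7 and rpl10a, and their rises were modest, between 1.45-fold and 1.72-fold. The median log2 fold change of the 75 was 0.26, against -0.00019 over all 13756 tested genes, and 70 of the 75 (93.3%) had a positive sign, against 50.0% of all tested genes; without control MO 1 it was 57 of 75. In bulk RNA a change in the number of cells that express a gene and a change in RNA per cell cannot be told apart.

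The level of the whole set showed the same direction. Summed over the 76 genes it was 18725 and 21326 TPM in Foxh1 MO 1 and 2, and 16252 and 17455 TPM in control MO 1 and 2, or 1.87% and 2.13% against 1.63% and 1.75% of all TPM. Foxh1 MO caps thus averaged 20026 ± 1839 TPM and control MO caps 16854 ± 850.2 TPM (SD, n = 2 each), a ratio of 1.19, with groups that did not overlap. An exact two-sided permutation test over the libraries gave p = 0.333, the smallest p that 2 against 2 libraries allow. As a share of counts outside ribosomal RNA models the set took 0.492% and 0.573% in Foxh1 MO 1 and 2, and 0.402% and 0.491% in control MO 1 and 2. By this measure Foxh1 MO 1 and control MO 2 lay side by side. The balance of the subunits differed little, with a ratio of summed 60S to 40S TPM of 1.42 and 1.39 in Foxh1 MO 1 and 2 and 1.39 and 1.40 in control MO 1 and 2.

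**Figure D1:**
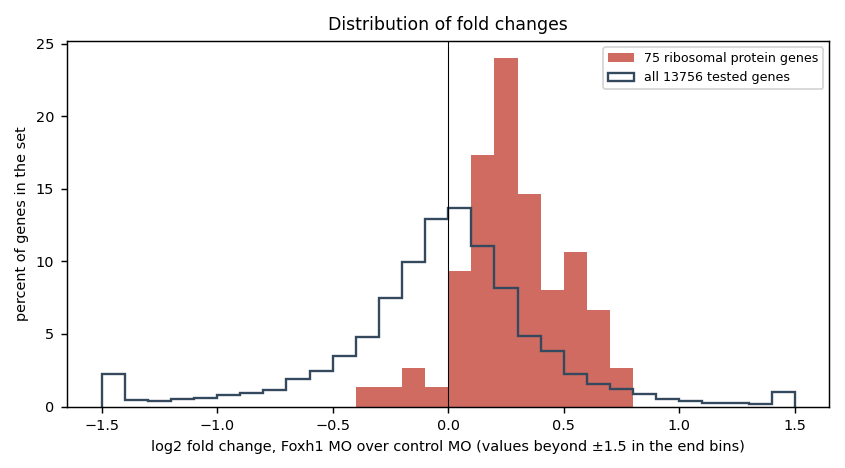
Distribution of log2 fold changes (Foxh1 MO over control MO, x axis) as percent of genes in each set (y axis), for the 75 tested ribosomal protein genes (filled) and all 13756 tested genes (outline, ribosomal protein genes included). The ribosomal protein genes centre on 0.26 and the tested genes as a whole on -0.00019.

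Single transcripts covered a wide range of levels. Over the 4 libraries the mean ran from 64.3 TPM for rpl29, a protein of the 60S surface, to 709.5 TPM for rps18, a protein of the 40S head, an 11.0-fold range once the paralog rps27l (6.90 TPM) is set aside. The median was 222 TPM, and 62 of the 75 lay within 2-fold of it. The order of genes was nearly the same in both groups (Pearson r = 0.971 and Spearman rho = 0.951 between log2 TPM in Foxh1 MO and control MO caps across 75 genes, which share the same libraries and are not independent replicates).

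Among the 8 most abundant transcripts 1, rpl37, was called (12.5%), close to the 16.0% of all 75. The highest of all, rps18, stood at 680 and 759 TPM in Foxh1 MO caps and at 719 and 680 TPM in control MO caps, and its groups overlapped. Its log2 fold change was 0.08 (SE 0.14). For rps25, also of the 40S head, the values were 623 and 755 TPM in Foxh1 MO caps and 558 and 557 TPM in control MO caps, groups that did not overlap, with a log2 fold change of 0.34 (SE 0.15, edgeR quasi-likelihood adjusted p = 0.214). Values of rpl6 were 567 and 624 TPM in Foxh1 MO caps and 488 and 489 TPM in control MO caps (log2 fold change 0.31, SE 0.14, adjusted p = 0.207 by the same test). The log2 fold changes of rpl13 (0.16), rps14 (0.26) and rpl15 (0.12) did not pass either.

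Small-subunit genes gave 5 rises among 30 tested (16.7%), large-subunit genes 7 among 45 (15.6%), close to each other. In CPM, counts per library size scaled by the trimmed mean of M-values (TMM), both Foxh1 MO libraries lay above both control MO libraries for 40 of the 75 genes (53.3%), against 26.5% of all tested genes, and below both for 1, rpl5, against 24.3% of all tested genes. All 30 small-subunit genes had a positive sign, with a median log2 fold change of 0.26, but rps13 lay so near 0 (0.0048) that it turned negative under RLE or upper-quartile scaling and on the TPM scale. Without control MO 1 the number of positive signs was 22 of 30, and without Foxh1 MO 2 it was 25. Among large-subunit genes 40 were positive and 5 negative, with a median of 0.27.

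**Figure D2:**
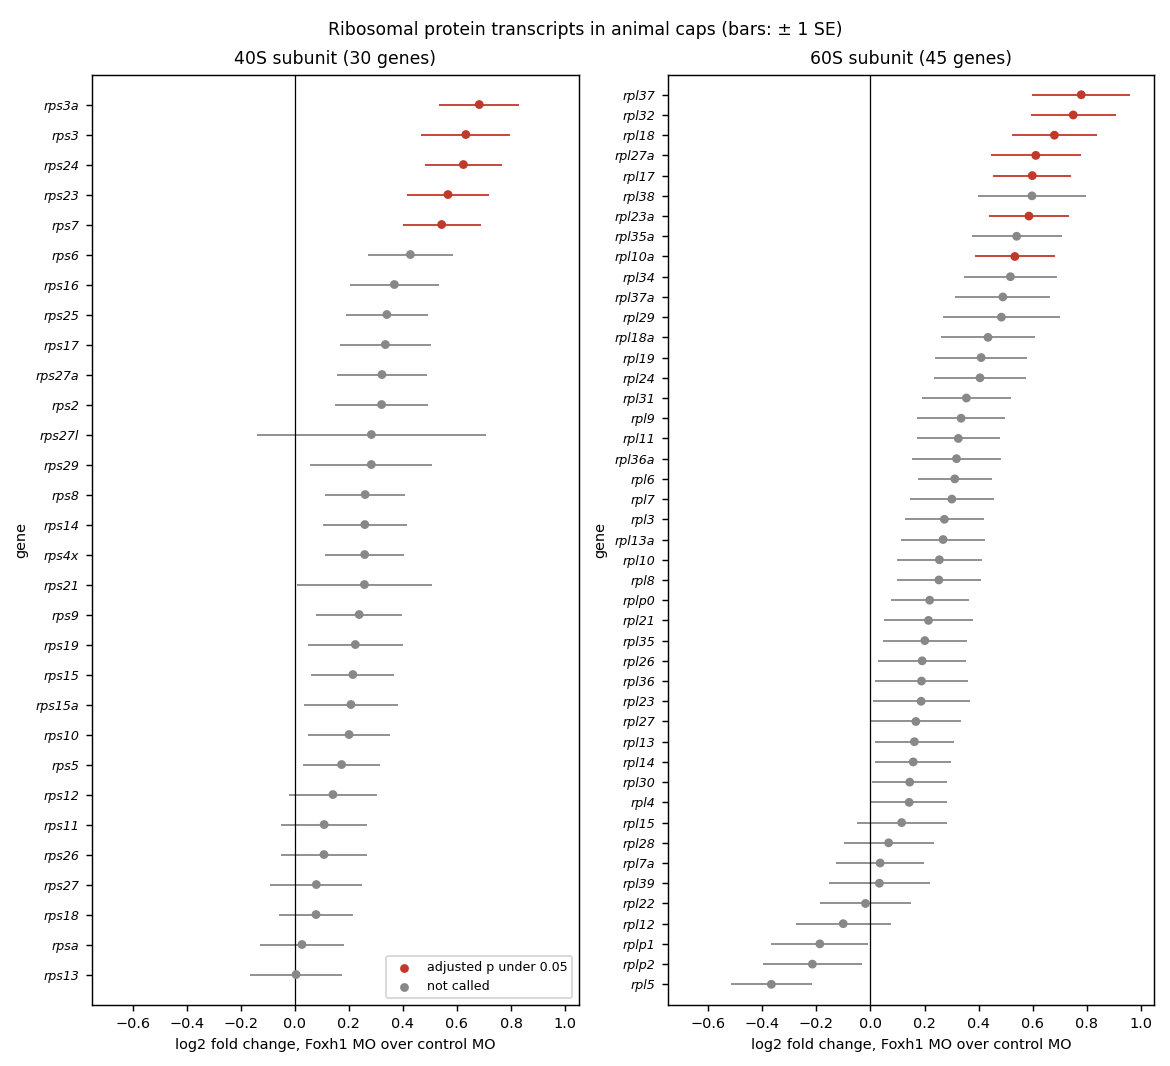
Log2 fold change of each tested gene (Foxh1 MO over control MO, x axis, bars ± 1 SE of the edgeR fit with 2 libraries per group), sorted within the 40S (left) and 60S (right) subunits, with called genes in red. The 5 called 40S genes and 7 called 60S genes lie between 0.53 and 0.78, and rpl5, rplp2 and rplp1 have the lowest values.

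Among the small-subunit genes that rose, rps3a, whose protein sits on the platform of the 40S subunit, stood at 152 and 191 TPM in Foxh1 MO caps and at 114 and 106 TPM in control MO caps. This was a 1.60-fold rise (log2 fold change 0.68, SE 0.15; edgeR gave an adjusted p of 0.0150). Transcripts of rps3, a protein at the entry of the mRNA channel, measured 193 and 242 TPM in Foxh1 MO caps and 133 and 154 TPM in control MO caps (log2 fold change 0.63, SE 0.16, edgeR adjusted p = 0.0339). In both genes the lower Foxh1 MO library exceeded the higher control MO library in TPM, as in 20.6% of all tested genes, which adds nothing to their calls.

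For rps24, mutated in some human patients with Diamond-Blackfan anaemia, a failure of red cell production, the levels were 336 and 372 TPM in Foxh1 MO caps and 242 and 227 TPM in control MO caps. Its log2 fold change was 0.62 (SE 0.14, edgeR adjusted p = 0.0197). The rps23 transcript, whose protein lies at the decoding centre, had 289 and 348 TPM in Foxh1 MO caps and 223 and 218 TPM in control MO caps, and rose 1.48-fold (adjusted p = 0.0396 in edgeR). A gene that the same human anaemia involves, rps7, stood at 226 and 271 TPM in Foxh1 MO caps and 180 and 168 TPM in control MO caps and rose 1.46-fold (adjusted p = 0.0371 in edgeR). None of these 3 had overlapping groups, which likewise adds nothing to their calls.

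The 2 largest rises were in large-subunit genes. Transcripts of rpl37, a small protein with a zinc-binding fold, reached 612 and 753 TPM in Foxh1 MO caps, against 382 and 420 TPM in control MO caps, or 683 ± 99.4 and 401 ± 26.9 TPM (SD, n = 2 each). This was a 1.72-fold rise (log2 fold change 0.78, SE 0.18, edgeR adjusted p = 0.0200). The rpl32 transcript stood at 351 and 429 TPM in Foxh1 MO caps and at 236 and 239 TPM in control MO caps, 1.68-fold higher (log2 fold change 0.75, SE 0.16, edgeR adjusted p = 0.0118, the smallest of the set). It was the single member still called without Foxh1 MO 2, and without control MO 1 its adjusted p was 0.0639 in edgeR.

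Levels of rpl18 were 252 and 289 TPM in Foxh1 MO caps and 162 and 183 TPM in control MO caps, a 1.60-fold rise (edgeR adjusted p = 0.0199). In the RefSeq table rpl18 overlaps the lipid kinase gene sphk2, and the strand setting of the counting is not given in the sources used here, so reads of the pair may be mixed. Transcripts of rpl17, whose protein lines the exit tunnel for the new peptide, had 249 and 287 TPM in Foxh1 MO caps and 183 and 178 TPM in control MO caps, 1.51-fold higher (edgeR adjusted p = 0.0240). At the mouth of that tunnel lies Rpl23a, a docking site for factors that meet the new chain. Its transcript measured 304 and 321 TPM in Foxh1 MO caps and 209 and 218 TPM in control MO caps (log2 fold change 0.59, edgeR adjusted p = 0.0296).

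The remaining pair that rose had lower levels. The rpl27a transcript stood at 136 and 163 TPM in Foxh1 MO caps and at 101 and 109 TPM in control MO caps (1.53-fold, edgeR adjusted p = 0.0410, but 0.0506 with the effective length in the fit). For rpl10a, which forms the mobile L1 stalk beside the exit site for transfer RNA, the values were 96.3 and 114 TPM in Foxh1 MO caps and 72.5 and 74.9 TPM in control MO caps (1.45-fold, edgeR adjusted p = 0.0439). All 12 genes had their highest TPM in Foxh1 MO 2 and their lowest CPM in control MO 1. In TPM the lowest library was control MO 2 for rps3a, rps24, rpl17, rps7 and rps23, and control MO 1 for the others. For 11 of the 12 genes the authors' deposited table gives a false discovery rate under 0.05, and for rpl10a it gives 0.0606.

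**Figure D3:**
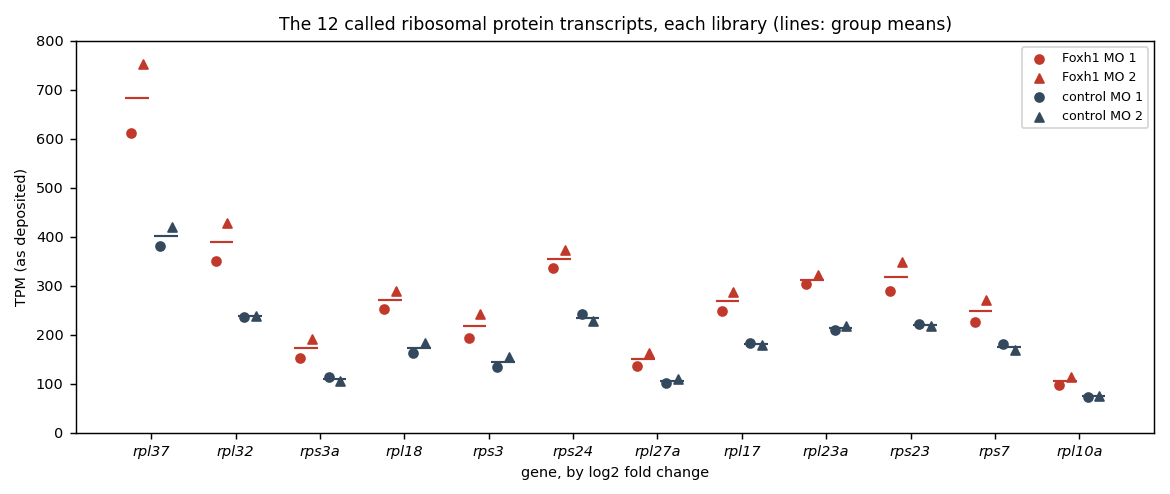
TPM (y axis) of the 12 called genes (x axis, by fold change) in each library, Foxh1 MO in red left of control MO in blue, with circles for replicate 1, triangles for replicate 2 and lines for group means. In rpl37 the Foxh1 MO libraries stand at 612 and 753 TPM, above 382 and 420 TPM in control MO, and in all 12 genes both Foxh1 MO points lie above both control MO points. Of all tested genes 20.6% show this order.

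Of the 63 tested genes that were not called, 58 had a positive and 5 a negative log2 fold change, in a range from -0.37 to 0.60. The largest positive values were those of rpl38, rpl35a, rpl34, rpl37a and rpl29. For rpl38, which in mouse embryos is needed for the translation of Hox mRNAs, levels were 263 and 297 TPM in Foxh1 MO caps and 170 and 197 TPM in control MO caps (log2 fold change 0.60, SE 0.20, edgeR adjusted p = 0.0938, but 0.0469 with the effective length in the fit). The groups did not overlap, but its counts were low for its TPM because the transcript is short, with 294 and 340 counts in Foxh1 MO caps and 200 and 262 in control MO caps. The rpl35a transcript, another gene of human Diamond-Blackfan anaemia, stood at 94.7 and 103 TPM in Foxh1 MO caps and 66.7 and 72.8 TPM in control MO caps (log2 fold change 0.54, SE 0.17, edgeR adjusted p = 0.0679).

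Values of rpl34 were 121 and 137 TPM in Foxh1 MO caps and 99.8 and 97.4 TPM in control MO caps (log2 fold change 0.52, SE 0.17). Those of rpl37a were 438 and 521 TPM in Foxh1 MO caps and 324 and 366 TPM in control MO caps (log2 fold change 0.49, SE 0.18). In rpl29 the Foxh1 MO libraries lay apart at 58.9 and 89.8 TPM, against 51.0 and 57.5 TPM in control MO caps, with groups that overlapped in CPM (log2 fold change 0.48, SE 0.22). As with rpl18, another gene model overlaps rpl29 in the RefSeq table, so its reads may be mixed, and the same holds for rpl31. At the low end rps15a had 64.1 and 78.0 TPM in Foxh1 MO caps and 57.4 and 68.3 TPM in control MO caps, with overlapping groups and a log2 fold change of 0.21 (SE 0.17).

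Genes with roles beyond the shared frame of the ribosome were examined by name. Rps6 is the ribosomal protein that S6 kinase phosphorylates downstream of mTOR. Its transcript had 263 and 325 TPM in Foxh1 MO caps and 214 and 233 TPM in control MO caps, groups that did not overlap, with a log2 fold change of 0.43 (SE 0.16, edgeR adjusted p = 0.122). Rps27a is made as a fusion with ubiquitin. It measured 250 and 252 TPM in Foxh1 MO caps and 187 and 222 TPM in control MO caps (log2 fold change 0.32, SE 0.17). Rpsa, also known as the laminin receptor precursor, stood at 132 and 138 TPM in Foxh1 MO caps and 124 and 148 TPM in control MO caps, with overlapping groups and a log2 fold change of 0.03 (SE 0.16).

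Rpl5 and Rpl11 enter the large subunit together with the 5S ribosomal RNA, and when free they bind the ubiquitin ligase Mdm2. The rpl5 transcript was the lowest in fold change of all 75. It had 103 and 129 TPM in Foxh1 MO caps and 154 and 153 TPM in control MO caps, so that both Foxh1 MO libraries lay below both control MO libraries. Its log2 fold change was -0.37 (SE 0.15, edgeR adjusted p = 0.170), short of the threshold. Its partner rpl11 pointed the other way, at 183 and 204 TPM in Foxh1 MO caps and 153 and 163 TPM in control MO caps (log2 fold change 0.33, SE 0.15, edgeR adjusted p = 0.240). The difference between the pair was not tested.

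The P stalk is a flexible arm of the large subunit that recruits elongation factors. It held 0 called genes of 3 by edgeR, DESeq2 or limma-voom, and 0 with an unadjusted p under 0.05 in edgeR. With 16.0% of the 75 and 8.24% of all tested genes called in edgeR, 0 of 3 does not set the stalk apart. Its base, rplp0, stood at 244 and 277 TPM in Foxh1 MO caps and at 222 and 239 TPM in control MO caps (log2 fold change 0.22, SE 0.14). The tip proteins had negative values. Transcripts of rplp1 measured 339 and 326 TPM in Foxh1 MO caps and 339 and 427 TPM in control MO caps (log2 fold change -0.19, SE 0.18, turning to 0.14 without control MO 2). Those of rplp2 measured 91.1 and 94.8 TPM in Foxh1 MO caps and 105 and 114 TPM in control MO caps (log2 fold change -0.21, SE 0.18). The other genes with a negative sign, rpl12 (-0.10) and rpl22 (-0.02), were within their errors of 0.

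Paralogs were much lower than their partners, with 1 exception. Rps27l stands beside rps27, and had 7.10 and 7.70 TPM in Foxh1 MO caps and 9.02 and 3.79 TPM in control MO caps, or 1.84% and 1.81% of the rps27 level in Foxh1 MO caps and 2.51% and 0.900% in control MO caps. Its control libraries spread more than the groups differed (log2 fold change 0.28, SE 0.42). Rpl3l, a muscle form of rpl3 in mammals, had 2 and 2 counts in Foxh1 MO caps and 1 and 1 in control MO caps and was the single gene of the 76 too low to test. Outside the naming rule, rpl22l1 stood at 16.7% and 16.4% of rpl22 in Foxh1 MO caps and 20.1% and 14.5% in control MO caps. The exception was rpl7l1, a homolog that works in ribosome assembly, at 113% and 104% of the rpl7 level in Foxh1 MO caps and 136% and 134% in control MO caps. Neither rpl22l1 (log2 fold change -0.07, SE 0.17) nor rpl7l1 (-0.01, SE 0.14) was called.

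The spread between libraries of a group was of the same order as the shift between groups. In CPM, control MO 1 was the lowest library for 71 of the 75 genes and Foxh1 MO 2 the highest for 62. The median difference of the 75 genes in log2 CPM was 0.53 between Foxh1 MO 2 and control MO 1, and 0.34 between Foxh1 MO 1 and control MO 1. Against control MO 2 it was 0.20 for Foxh1 MO 2 and 0.03 for Foxh1 MO 1. Within groups, Foxh1 MO 1 lay below Foxh1 MO 2 by a median of -0.19, and control MO 1 below control MO 2 by -0.33, with 1 gene of 75 higher in control MO 1. Over all tested genes these medians lay between -0.02 and 0.02.

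**Figure D4:**
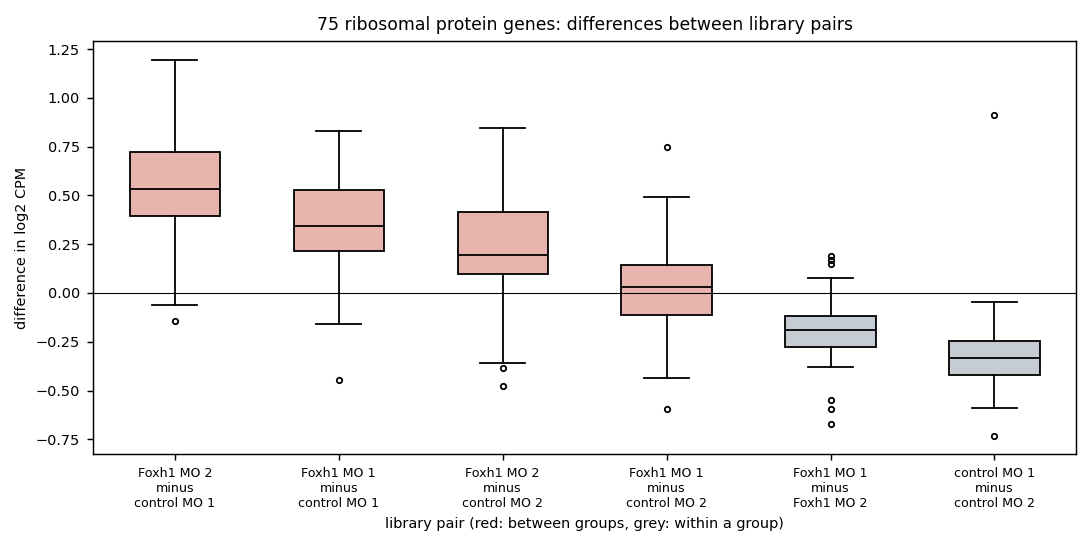
Differences in log2 CPM (y axis) of the 75 genes between pairs of libraries (x axis), between groups in red and within a group in grey; boxes span the quartiles with the median as a line, whiskers reach 1.5 times the box and circles lie beyond. Medians run from 0.53 (Foxh1 MO 2 minus control MO 1) to 0.03 (Foxh1 MO 1 minus control MO 2) between groups and are -0.19 and -0.33 within groups.

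Fragment length also differed between these libraries. Ribosomal protein transcripts are short, from 299 to 1309 bases, and the gap between a transcript's length and its effective length, which grows with the length of the sequenced fragments, was 234 and 223 bases in Foxh1 MO 1 and 2 and 241 and 217 bases in control MO 1 and 2. The group means were equal at 229 bases, but the control libraries were the extremes; the part of fragment length in the spread was not tested. On the TPM scale, which uses the effective length, control MO 1 lay below control MO 2 by a median of -0.11, and control MO 1 was the lowest library for 52 of the 75 genes. The 4 medians between groups were positive, from 0.07 (Foxh1 MO 1 over control MO 2) to 0.39 (Foxh1 MO 2 over control MO 1). TPM are not centred by TMM, and over all tested genes the same TPM medians ran from -0.09 (Foxh1 MO 1 over control MO 1) to 0.10 (control MO 1 over control MO 2), so the smaller gap between the controls holds a shift of all genes as well. Both Foxh1 MO libraries exceeded both control MO libraries in TPM for 50 of the 75 genes, against 20.6% of all tested genes, and lay below both for 3, against 27.6%. These 3 were rpl5, rplp1 and rplp2. For rplp1 the nearest libraries were almost level, at 338.67 TPM (Foxh1 MO 1) and 338.85 TPM (control MO 1). In CPM the groups of rplp1 and rplp2 overlapped.

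The size of the shift moved with the libraries too. Its median log2 fold change was 0.09 without control MO 1 and 0.16 without Foxh1 MO 2, where rpl32 was the call that remained, but 0.44 without control MO 2 and 0.34 without Foxh1 MO 1. With all libraries 24 genes had an unadjusted p under 0.05 upward and 1 (rpl5) downward in edgeR. The share of all tested genes at that threshold is not given here, so these counts show nothing particular to the set. The effective length of each gene then entered the fit as well, an alternative chosen after seeing the data. The median was 0.14 without control MO 1 and 0.18 without Foxh1 MO 2, where rpl5 had a log2 fold change of -0.52. It was 0.40 without control MO 2 and 0.32 without Foxh1 MO 1 for the set. The signs of the 12 called genes were positive in each of these 8 fits. In CPM both Foxh1 MO libraries already lay above both control MO libraries in all 12, so these signs add no support.

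Fold changes showed little relation to length or level. Whether the called genes differ from the others in either was not tested. Over the 75 genes the log2 fold change had a Pearson r of -0.08 with transcript length and -0.02 with log2 mean TPM (Spearman rho 0.007 for length and -0.08 for level), as a description across genes that share the same 4 libraries. Of the 25 shortest genes (299 to 512 bases) 3 were called, of the 25 longest (682 to 1309 bases) 4, and of the 25 between them 5.

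Many of these genes carry other genes in their introns. By the RefSeq annotation, 25 of the 75 (33.3%) had at least 1 small nucleolar RNA (snoRNA) gene inside, 68 in all, against 0.546% of the tested protein-coding genes; snoRNAs guide the chemical modification of ribosomal RNA. Of the 12 called genes 7 were such hosts (rps7, rpl17, rpl23a, rps3, rps3a, rpl37 and rpl27a). Hosts and other members had the same median log2 fold change, 0.26 and 0.26. Of 25 hosts 7 were called, and of 50 others 5. Among all tested genes 8.24% were called in either direction and 4.17% were called higher. Whether hosts and others differ was not tested. Over all tested protein-coding genes 13 of 72 hosts were called, the 25 included. This grouping was chosen after the values were seen. The snoRNAs themselves were barely sampled in these poly(A) libraries, with 145 and 135 counts over 342 gene models in Foxh1 MO caps and 127 and 128 in control MO caps.

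Other TOP mRNAs and ribosome proteins outside the symbol rule gave 1 rise, 0 falls and 25 not called among 26 tested, or 3.85% called against 8.24% of all tested genes, with a median log2 fold change of 0.09. Of the 26, 19 (73.1%) had a positive and 7 a negative sign, against 50.0% positive over all tested genes. In CPM both Foxh1 MO libraries lay above both control MO libraries for 12 (46.2%, against 26.5% of all tested genes). They lay below both for 5, against 24.3% of all tested genes. Of these, eef1a2 and eef2.2 were scarcely expressed, at mean levels of 0.44 and 0.75 TPM. So was vim (mean 0.745 TPM), which had a positive sign. More positive than negative signs were thus seen outside the 75 as well, with a smaller median than their 0.26. The rise was that of eif3l, a subunit of the initiation factor eIF3, at 147 and 167 TPM in Foxh1 MO caps and 119 and 109 TPM in control MO caps (log2 fold change 0.50, SE 0.13, edgeR adjusted p = 0.0396). The elongation factor transcript eef1a1o, the most abundant of the list, stood at 5197 and 5963 TPM in Foxh1 MO caps and 4501 and 4150 TPM in control MO caps (log2 fold change 0.41, SE 0.13, edgeR adjusted p = 0.0846). The gene fau, which encodes a 40S protein fused to a ubiquitin-like protein, had a log2 fold change of 0.10 (SE 0.17), while rack1, a scaffold on the 40S head, had 0.19 (SE 0.14). The poly(A)-binding protein gene pabpc1 had -0.23 (SE 0.16) and was not called.

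Among 26 tested chaperones, importers and assembly factors of ribosomal proteins, mdm2 and mdm4 counted in, 1 rose and 2 fell (11.5% called, against 8.24% of all tested genes). The nmd3 transcript encodes the adaptor that carries new 60S subunits out of the nucleus. It had 36.8 and 36.2 TPM in Foxh1 MO caps, against 95.8 and 86.1 TPM in control MO caps, and fell by 1.27 on the log2 scale (SE 0.14, edgeR adjusted p = 0.000216). Its groups lay far apart beside the spread within them, and the log2 fold change was -1.30 to -1.24 whichever library was left out. Transcripts of eif6, whose protein keeps new 60S subunits from joining 40S subunits, stood at 99.4 and 129 TPM in Foxh1 MO caps and 73.6 and 74.2 TPM in control MO caps (log2 fold change 0.66, SE 0.15, edgeR adjusted p = 0.0208).

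The other that fell was the importin gene ipo9, with 22.5 and 20.4 TPM in Foxh1 MO caps and 35.1 and 29.6 TPM in control MO caps (log2 fold change -0.54, SE 0.14, edgeR adjusted p = 0.0330). The log2 fold change of mdm2 was 0.04 (SE 0.23). Among 21 tested regulators of ribosomal protein mRNAs, 1 rose and 0 fell (4.76% called, against the same 8.24%). This was gabpa, an ETS-family transcription factor that binds promoters of many ribosomal protein genes in mammals, at 220 and 250 TPM in Foxh1 MO caps and 186 and 163 TPM in control MO caps (log2 fold change 0.47, SE 0.13, edgeR adjusted p = 0.0491). The log2 fold changes of mtor (-0.02, SE 0.13), larp1 (-0.14, SE 0.17) and myc (0.23, SE 0.15) did not pass. Without control MO 1 or without Foxh1 MO 2 the calls of eif6, ipo9, gabpa and eif3l ended (edgeR adjusted p 0.0950 to 0.236), those of ipo9, gabpa and eif3l also without control MO 2 (up to 0.360), and that of nmd3 remained in all 4 fits.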

How the data were processed

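The authors deposited, per the file headers, an RSEM table per library with expected counts, TPM, FPKM, length and effective length for 28850 genes, and a comparison table with log2 fold changes, log2 CPM, an F score, p-values and false discovery rates. FPKM values were not used. RSEM 1.3.3 and STAR 2.7.3a, with R 4.1.2 and edgeR 3.36.0, are named in the submitters' processing notes; build, annotation release and strand setting are not given in the sources used here. Columns of other samples numbered 0.

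Expected counts were rounded and fitted over all genes with edgeR 4.0.16 (R 4.3.3): filterByExpr (minimum count 10, minimum total 15) left 13756 genes, libraries were scaled by TMM, and groups were compared with the quasi-likelihood F test without covariates (Foxh1 MO minus control MO). Calls needed an adjusted p (Benjamini-Hochberg, all tested genes) under 0.05. SE is the absolute log2 fold change divided by the square root of F. The procedure was also run on simulated counts, with genes drawn independently and with the same dispersion. Members moved together between libraries here, so that run does not bear on their calls. TPM are as deposited; log2 CPM between libraries used a prior count of 2. Low counts limit precision: SEs of members ran up to 0.25, and to 0.42 for rps27l.

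Members and lists were chosen with earlier results of these data known. Named genes were all called members, the 8 highest and 5 lowest in mean TPM, the 5 largest changes not called, the P stalk genes, rpl5, rpl11, rpsa, rps6, rps27a and untested members; others were named after their values were seen. Alternatives were DESeq2 1.42.0, limma 3.58.1 (voom; trend on log2 of TPM plus 1 or 0.1), other factors and filters, an effective length offset, a replicate block, other thresholds and each library left out. Features of promoters and proteins were not analysed here. Results for some genes of the lists are not reported here.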

Additional observations from a re-analysis of the deposited data

How the results depend on the processing

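All 4 libraries were refitted with DESeq2, limma-voom, both limma-trend settings, other scaling factors, other filters, TMM without members and the effective length offset. These fits gave 12 to 15 members called higher and 0 called lower, with a median log2 fold change of 0.23 to 0.27. Members called higher were 15.8% to 20% of those fitted, against 1.69% (DESeq2) to 4.86% of all genes fitted. With the offset 11 of the 12 remained, rpl27a was lost (adjusted p 0.0506 in edgeR) and rpl38 was gained. The labels do not say whether same-numbered libraries share a clutch or batch. Their deviations had r = -0.08 over all tested genes, which cannot decide this, because a correlation does not see a shift of a whole set. Only 6 of the 75 members were higher in Foxh1 MO 1 than in Foxh1 MO 2, and 1 in control MO 1 than in control MO 2. With the replicate number as a block 10 members were called (13.3%, against 3.97% of all tested genes called higher). Here rps7 and rpl10a were lost. At an adjusted p under 0.01 the count was 0 by edgeR, against 1.53% of all tested genes called higher. At 0.1 it was 15 (20%), against 6.35%. Leaving out each library in turn gave 0 to 25 members higher, 0 lower and a median of 0.09 to 0.44; with the length offset as well, an alternative chosen after seeing the data, it gave 3, 9, 20 and 7 higher (without control MO 1, control MO 2, Foxh1 MO 1 and Foxh1 MO 2), 0 to 1 lower and a median of 0.14 to 0.40. The log2 ratio of the summed share of counts was 0.25 with all libraries and ran from 0.12 to 0.41 without each in turn. Among the genes chosen by rule, signs turned for these, none of them called: rpl15 (-0.083 to 0.34 without each library), rpsa (-0.17 to 0.25), rplp1 (-0.45 to 0.14), rps27l (-0.12 to 0.88) and rps18 (-0.0049 to 0.16). With the offset as well rpl15 was -0.055 and -0.024, rpsa -0.16, rplp1 0.078 and rps27l -0.18. The cause was not tested.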
